A study of Homo sapiens with 16 samples.

Results

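Gene expression responses that differed between harmine and INDY, a pair of DYRK1A inhibitors, were measured in resting U2OS cells (human osteosarcoma) with 16 RNA-seq libraries in one model. A gene's difference was its log2 fold change under harmine minus its log2 fold change under INDY. Of 20446 genes tested, 11139 had a difference at an adjusted p under 0.01. Confluent cells were kept without serum for 48 h and treated for the last 24 h. One group received 10 µM harmine hydrochloride and was compared with cells given its vehicle water, and another received 25 µM INDY and was compared with cells given its vehicle DMSO, with 4 libraries in each of the 4 groups and no library shared between the comparisons. Dose and vehicle changed together with the compound, so that these cannot be told apart. Whether the 4 libraries in each group stem from separate cultures is not stated in the labels, so that p-values measure only how these libraries vary, possibly for technical reasons. All cells came from 1 cell line.

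DYRK1A is a kinase that phosphorylates LIN52, a step that assembles the DREAM complex, which holds cell cycle and DNA repair genes repressed in cells at rest. Harmine is a plant beta-carboline alkaloid that also blocks monoamine oxidase A, and INDY is a synthetic benzothiazole. Both occupy the ATP pocket of the kinase, and both also reach related kinases of the DYRK and CLK families.

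Estimated counts summed to 44301910 to 65889667 per library. Levels are given as CPM (counts scaled to the library total, with TMM factors), not corrected for gene length, so that they compare samples and not genes, and library values are listed in the order of the replicate numbers. Of 8 markers of mesenchymal and osteosarcoma cells, 6 were expressed (VIM, SPARC, COL1A1, RUNX2, FN1 and CDH2), with a summed level of 3681 to 4275 CPM with water, 5369 to 5559 under harmine, 3939 to 4272 with DMSO and 3531 to 4010.1 under INDY, while COL1A2 and TWIST1 did not pass the filter on low counts. Of 8 epithelial markers, KRT5, KRT14 and ESRP1 did not pass it, CDH1 was at 0.508 CPM or less in every library, and the summed level was 670.0 to 719.6 CPM with water, 624 to 636 under harmine, 617 to 646 with DMSO and 663 to 718 under INDY, mostly KRT8 and KRT18. Of 8 blood cell markers, those that did not pass included CD3E, HBB, HBA1 and LYZ, and PTPRC was at most 0.595 CPM. CD14 was at a mean of 0.0664 CPM with DMSO and 1.5 under INDY (at most 2.26 in any library). ITGAM was expressed, at a mean of 35.5 CPM with water, 11.3 under harmine, 32.99 with DMSO and 6.33 under INDY. ITGAM thus fell with both compounds (-1.65 and -2.39 under harmine and INDY on the log2 scale). The summed level of the blood cell markers was 34.3 to 37.2 CPM with water and 32.1 to 34.9 with DMSO, mostly ITGAM. On principal components, INDY libraries 1 and 3 lay apart from 2 and 4, and water libraries 1 and 4 from 2 and 3. DMSO and water libraries differed at 877 genes (4.29% of those tested).

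Called differences were split by what each compound did alone. The harmine effect was above the INDY effect for 5745 genes (28.1% of those tested) and below it for 5394 (26.4%). A sign reversal, where both effects passed the threshold in opposite directions, was called for 2210 genes: 1279 were higher under harmine and lower under INDY (6.26% of those tested), and 931 were lower under harmine and higher under INDY (4.55%). Another 2197 genes changed in the same direction by different amounts. For 1758 genes just the harmine effect passed and for 4758 just the INDY effect, and 216 had a called difference with neither effect called. As background, 24.9% of genes tested were higher and 22.8% lower under harmine, and 33.2% were higher and 33.4% lower under INDY. The shares of all genes in this paragraph are the background for the counts of the gene lists below.

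Reversals were mostly small. Genes higher under harmine and lower under INDY had median log2 fold changes of 0.41 and -0.56, and 310 of the 1279 changed at least 1.5-fold with each compound. Genes lower under harmine and higher under INDY had medians of -0.28 and 0.35, and 107 of 931 reached 1.5-fold both ways. In 1204 and 838 of them, no treated library overlapped its own controls for either compound. The calls rest on the same libraries, so that this separation largely follows from the selection and is no separate support. Over all genes tested, such separation in opposite directions was seen in 7.67% with the harmine libraries above water and 5.41% with them below. These shares include the reversing genes. Of the reversing genes, 162 (7.33%) also differed between DMSO and water. In bulk samples, fewer cells of a type and less RNA per cell cannot be told apart.

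**Figure D1:**
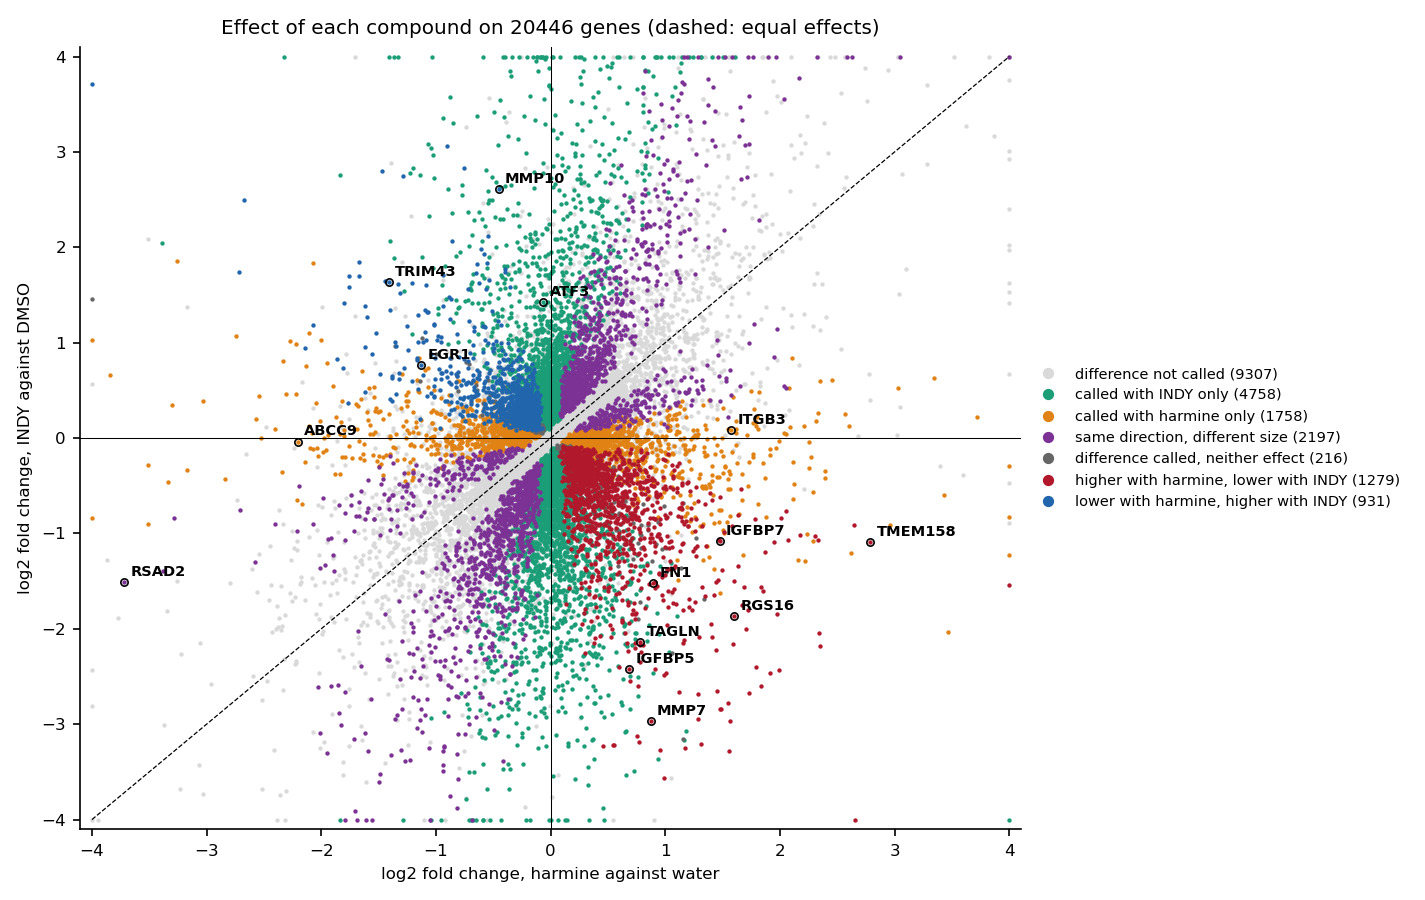
Effect of harmine (x axis) and of INDY (y axis) on each of 20446 genes as log2 fold changes, coloured by kind of difference, with the dashed line at equal effects and 156 genes beyond a log2 fold change of 4 drawn at the edge. The 1279 red and 931 blue genes lie in the quadrants of opposite sign, and the green genes called under INDY alone (4758) outnumber the orange ones called under harmine alone (1758).

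Genes higher under harmine and lower under INDY included membrane and secreted proteins among those with the strongest reversal. The genes named in this paragraph were picked among those without overlap of libraries, so that the lack of overlap is part of the choice. RGS16, which shortens signalling by G proteins, was at 15.97, 23.7, 26.5 and 14.5 CPM with water and 65.3, 59.95, 58.3 and 62.9 CPM under harmine, and 16.3, 20.4, 19.6 and 20.02 CPM with DMSO and 5.14, 5.58, 4.11 and 6.22 CPM under INDY. All harmine libraries lay above all water libraries and all INDY libraries below all DMSO libraries, with log2 fold changes of 1.60 ± 0.14 under harmine and -1.87 ± 0.17 under INDY, and a difference of 3.47 ± 0.22 (SE, adjusted p = 1.73e-10, edgeR's quasi-likelihood test). SHISA9, an auxiliary subunit of AMPA-type glutamate receptors, went from 4.84 ± 1.095 to 24.8 ± 0.353 CPM under harmine and from 4.797 ± 0.286 to 1.08 ± 0.355 CPM under INDY (SD, n = 4 libraries each), a difference of 4.53 on the log2 scale. SPNS2, which exports sphingosine-1-phosphate, was at 11.1, 12.3, 12.5 and 9.96 CPM with water and 28.02, 27.01, 29 and 28.7 CPM under harmine, and 11.01, 11.6, 10.4 and 12.2 CPM with DMSO and 2.36, 3.43, 2.02 and 2.93 CPM under INDY. Its libraries did not overlap in either comparison, with log2 fold changes of 1.29 and -2.08 under harmine and INDY. TMEM158 had 2.79 and -1.09, KRT75, a keratin, 1.95 and -1.09, the netrin receptor UNC5A 1.2 and -1.77, and SHISA2, an inhibitor of WNT and FGF receptor maturation, 1.44 and -1.50. IGFBP7, a secreted binding protein of the insulin-like growth factor family, had 1.47 and -1.08. IGFBP7 and SHISA2 also differed between the controls, with log2 fold changes of -0.42 and -0.58 in DMSO against water.

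**Figure D2:**
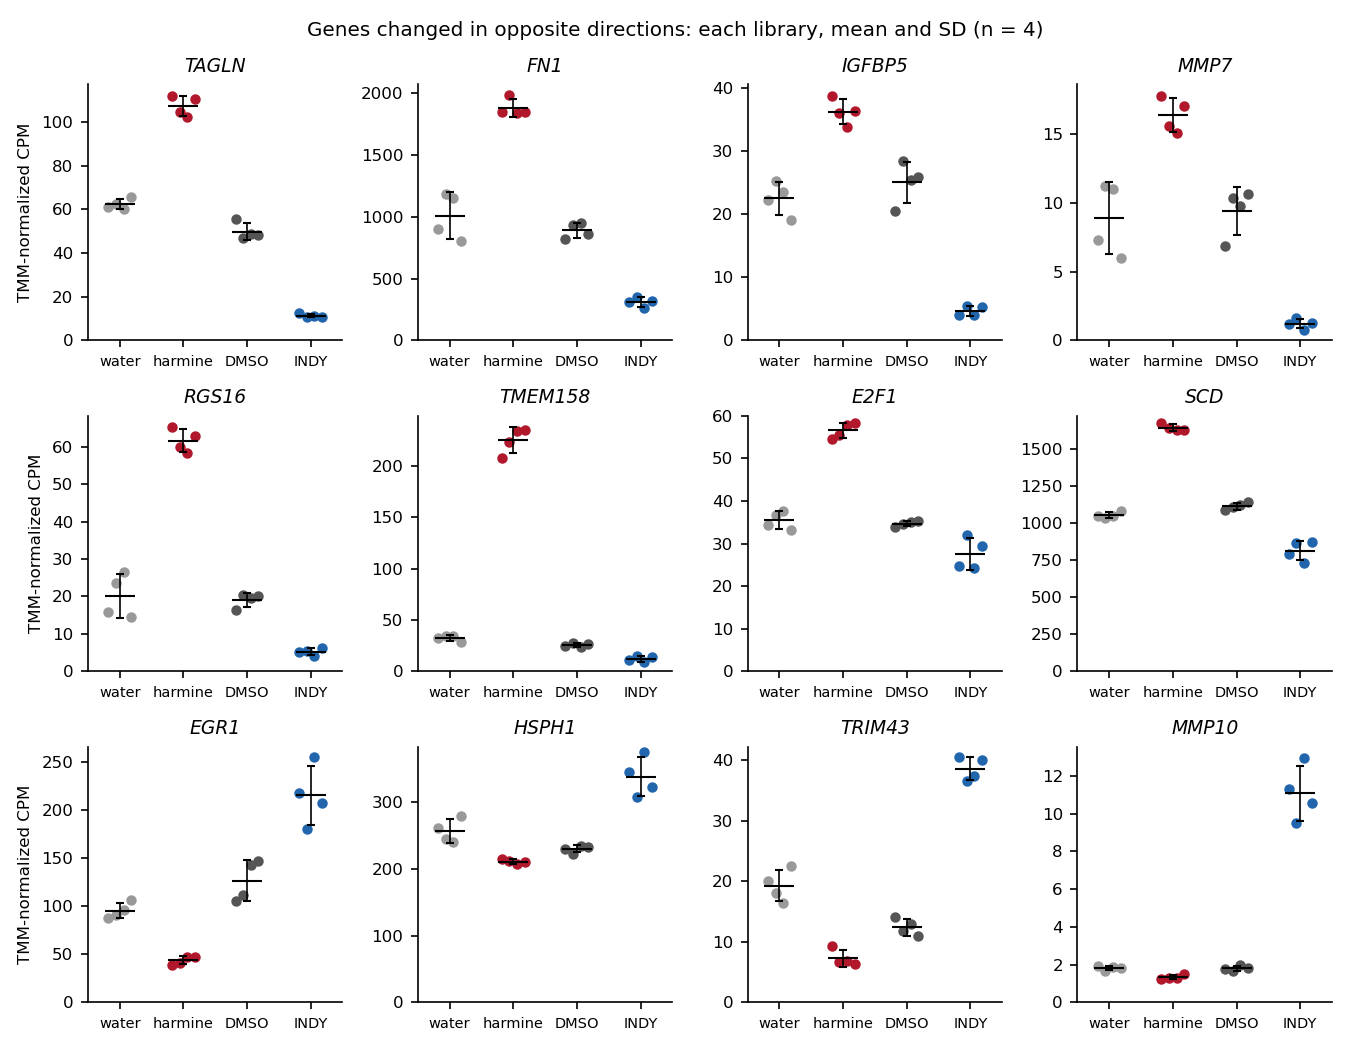
Level of 12 genes that reversed sign, in TMM-normalized CPM (y axis, from 0), in each of the 4 libraries of the water, harmine, DMSO and INDY groups (x axis), with bars for the mean and SD. TAGLN, FN1, IGFBP5, MMP7, RGS16, TMEM158, E2F1 and SCD were higher under harmine than with water and lower under INDY than with DMSO, and EGR1, HSPH1, TRIM43 and MMP10 the other way round.

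Genes of the actin cytoskeleton moved apart. SRF is a transcription factor that binds the CArG box and, with its MRTF cofactors, raises actin, myosin and adhesion genes when actin filaments form. Of 25 SRF targets and actin genes tested, 13 were higher under harmine and lower under INDY, against 6.26% of all genes, and none was called the other way round. The difference was above 0 for 19 and below 0 for 3, with a median of 0.70, against 0.00 over all genes tested. The medians of the effects were 0.39 under harmine and -0.37 under INDY.

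TAGLN, which encodes the actin-bundling protein transgelin (chr11:117199370-117207464, GRCh38, GENCODE 44), was at 61.2, 62.4, 60.4 and 65.8 CPM with water and 112, 104, 102 and 110.4 CPM under harmine, and 55.5, 46.9, 48.5 and 48.4 CPM with DMSO and 12.5, 10.8, 11.1 and 10.8 CPM under INDY. It was higher in every harmine library than in any water library and 4.41-fold lower under INDY than with DMSO, with log2 fold changes of 0.78 ± 0.05 under harmine and -2.14 ± 0.06 under INDY, and a difference of 2.92 ± 0.08 (SE, adjusted p = 1.69e-15, edgeR's quasi-likelihood test). The tropomyosins TPM1 (0.73 and -0.80 for harmine and INDY) and TPM4 (0.69 and -0.38) reversed, as did the actin cross-linker ACTN1 (0.67 and -0.45), the focal adhesion protein VCL (0.49 and -0.62), the calponin CNN2 (0.59 and -0.48), the adhesion scaffold FHL2 (0.78 and -0.46) and the actomyosin genes CALD1 (0.48 and -0.70), MYH9 (0.37 and -0.75) and MYL9 (0.44 and -0.47). Beta-actin ACTB went from 4649 ± 95.8 to 5444 ± 70.2 CPM under harmine and from 4926 ± 200.5 to 3449 ± 145 CPM under INDY. The transcription factor SRF itself (0.33 and -0.37) and its cofactor MRTFB (0.29 and -0.19) reversed too. ACTA2, smooth muscle actin, differed in size and not in sign, at 1.53 under harmine and 0.63 under INDY. CNN1 was among the 3 members with the opposite order, at -0.91 under harmine and -0.24 under INDY, where just the harmine effect passed. Without water library 1, 2, 3 or 4 or harmine library 1, 2, 3 or 4, the harmine effect of MYH9 (0.34 to 0.37) did not pass. TAGLN and CALD1 were the members of the 13 that also differed between the controls.

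CArG boxes were searched on both strands in the 300-base promoters (250 bases before to 50 after a start, RefSeq, GRCh38.p14). One stood in 8 of the 22 members of the list with a promoter in the table, among them the reversing SRF, CNN2, TPM4, FHL2 and ACTN1, against 1.6% of 27305 genes. EGR1, which moved the other way (described further on), holds such boxes as well. The promoters of TPM4 (chr19:16067288-16067587, plus strand), CNN2 (chr19:1026358-1026657, plus strand) and EGR1 (chr5:138465229-138465528, plus strand) are shown 5′ to 3′ with CArG boxes in capitals, since they carry the same motif in genes with opposite orders of response.
TPM4: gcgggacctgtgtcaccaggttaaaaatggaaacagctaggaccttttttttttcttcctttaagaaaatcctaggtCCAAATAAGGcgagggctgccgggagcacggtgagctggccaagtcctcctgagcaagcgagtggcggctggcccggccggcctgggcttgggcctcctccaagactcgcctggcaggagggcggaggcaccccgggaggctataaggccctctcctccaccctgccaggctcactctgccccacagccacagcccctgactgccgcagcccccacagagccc
CNN2: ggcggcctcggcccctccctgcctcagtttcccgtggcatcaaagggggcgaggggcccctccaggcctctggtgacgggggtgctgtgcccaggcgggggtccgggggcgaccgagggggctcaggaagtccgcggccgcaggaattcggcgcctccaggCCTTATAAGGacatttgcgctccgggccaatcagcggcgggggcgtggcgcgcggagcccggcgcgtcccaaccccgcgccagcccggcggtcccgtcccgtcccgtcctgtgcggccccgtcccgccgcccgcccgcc
EGR1: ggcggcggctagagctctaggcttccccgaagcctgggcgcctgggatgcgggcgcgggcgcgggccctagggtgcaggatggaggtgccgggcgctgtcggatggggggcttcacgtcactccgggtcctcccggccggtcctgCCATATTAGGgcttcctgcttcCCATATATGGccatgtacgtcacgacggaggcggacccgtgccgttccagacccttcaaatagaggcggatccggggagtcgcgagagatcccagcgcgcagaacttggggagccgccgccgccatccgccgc
The boxes begin 173 bases before the start for TPM4, 89 for CNN2 and 105 and 83 for EGR1. A match describes the letters and does not show that the factor binds there.

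Several genes of the extracellular matrix were higher under harmine and lower under INDY. FN1, the matrix glycoprotein fibronectin (chr2:215360440-215436073, GRCh38, GENCODE 44), was at 898, 1184, 1151 and 802 CPM with water and 1849, 1982, 1835 and 1845 CPM under harmine, and 819.8, 932, 945 and 862 CPM with DMSO and 314, 348, 259.7 and 319 CPM under INDY. The groups did not overlap in either comparison, with log2 fold changes of 0.90 ± 0.10 under harmine and -1.52 ± 0.10 under INDY, and a difference of 2.42 ± 0.14 (SE, adjusted p = 7.88e-11, edgeR's quasi-likelihood test). SPARC, a collagen-binding matrix protein of bone, went from 696 ± 41.7 to 938 ± 16.6 CPM under harmine and from 684 ± 34.02 to 505 ± 59.3 CPM under INDY. Of 31 collagen chains tested, 7 reversed in this direction, against 6.26% of all genes, and 0 in the other. The difference was above 0 for 20 and below 0 for 3, and the median effects were -0.17 under harmine and -0.85 under INDY. The basement membrane chains COL4A1 (0.64 and -0.83 under harmine and INDY) and COL4A2 (0.52 and -1.48), the short chain collagen COL8A1 (0.72 and -1.17), the transmembrane collagen COL13A1 (0.65 and -0.85), the fibril regulator COL5A1 (0.25 and -1.16) and the beaded filament chains COL6A1 (0.29 and -0.13) and COL6A3 (0.22 and -0.41) were the reversing ones. Without INDY library 2 or 4, the INDY effect of COL6A1 (-0.10 to -0.09) did not pass. COL11A1, a cartilage fibril chain, fell with both by unequal amounts (-0.81 and -3.57). COL1A1, the main chain of bone collagen, was at -0.33 and -0.36, with a difference of 0.03 (95% interval -0.07 to 0.13) that was not called. Of 31 integrin and laminin chains, which anchor cells to this matrix, ITGB4 (0.69 and -1.01) and ITGA4 (0.65 and -0.56) were the 2 higher under harmine and lower under INDY, a share near the 6.26% of all genes.

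Matrix metalloproteinases, which cut matrix proteins, and their inhibitors the TIMPs split both ways. MMP7 (matrilysin) was at 7.33, 11.2, 11 and 6.01 CPM with water and 17.8, 15.6, 15.1 and 17.1 CPM under harmine, and 6.85, 10.4, 9.81 and 10.6 CPM with DMSO and 1.201, 1.62, 0.787 and 1.24 CPM under INDY. All harmine libraries lay above water and all INDY libraries below DMSO, with log2 fold changes of 0.87 ± 0.17 under harmine and -2.97 ± 0.24 under INDY, and a difference of 3.84 ± 0.30 (SE, adjusted p = 1.55e-09, edgeR's quasi-likelihood test). MMP10 (stromelysin 2) did the reverse, at 1.92, 1.68, 1.88 and 1.84 CPM with water and 1.26, 1.28, 1.29 and 1.49 CPM under harmine, and 1.79, 1.67, 1.99 and 1.83 CPM with DMSO and 11.3, 9.52, 12.97 and 10.6 CPM under INDY. Its harmine libraries lay below every water library by a small amount, and its INDY libraries were 6.09-fold above DMSO, with log2 fold changes of -0.45 ± 0.11 under harmine and 2.61 ± 0.10 under INDY, and a difference of -3.06 ± 0.15 (SE, adjusted p = 6.02e-12, edgeR's quasi-likelihood test). MMP17 (0.62 and -1.45 under harmine and INDY), MMP14 (0.32 and -0.97), MMP2 (0.10 and -0.45) and the inhibitor TIMP2 (0.13 and -0.82) followed MMP7, and TIMP1 (-0.64 and 0.63) followed MMP10. Of 17 members tested, 5 were higher under harmine and lower under INDY and 2 the other way round, against 6.26% and 4.55% of all genes. The first count was 3 when water library 2 or 3, or harmine library 2 or 4, was left out: the harmine effect of MMP2 (0.08) did not pass without water library 2 or 3 or harmine library 2 or 4, and the harmine effect of TIMP2 (0.11 to 0.12) did not pass without water library 2 or 3 or harmine library 2, 3 or 4.

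The TGF-beta family, whose TGF-beta ligands are stored in the matrix bound to some of the LTBP proteins and signal through SMAD factors, held reversals of both kinds. Of 27 members tested, 4 were higher under harmine and lower under INDY and 4 lower under harmine and higher under INDY, against 6.26% and 4.55% of all genes. The difference was above 0 for 13 and below 0 for 8. The ligand TGFB2 went from 21.7 ± 1.03 to 45.2 ± 1.45 CPM under harmine and from 18.5 ± 0.822 to 8.36 ± 0.901 CPM under INDY, and the ligand TGFB3 from 4.64 ± 0.2605 to 2.47 ± 0.284 CPM under harmine and from 3.93 ± 0.179 to 5.15 ± 0.225 CPM under INDY. These ligands of the same receptors moved in opposite orders. INHBA, an activin subunit (1.12 and -0.26 under harmine and INDY), LTBP2 (0.52 and -0.88) and the secreted target TGFBI (0.85 and -1.68) went with TGFB2, although the INDY effect of INHBA (-0.21) did not pass without INDY library 3. LTBP3 (-0.39 and 0.74), the signal transducer SMAD3 (-0.62 and 0.66) and the SMAD inhibitor SKIL (-0.84 and 0.30) went with TGFB3.

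Genes of the insulin-like growth factor (IGF) system had the highest median difference of the lists with 10 or more members tested, 0.93 over 11 members. Of these, 4 were higher under harmine and lower under INDY, against 6.26% of all genes, and none the other way. IGFBP5, a secreted IGF-binding protein found in bone matrix, was at 22.3, 25.2, 23.5 and 19.04 CPM with water and 38.8, 36.1, 33.8 and 36.3 CPM under harmine, and 20.6, 28.4, 25.4 and 25.8 CPM with DMSO and 4.02, 5.47, 3.95 and 5.32 CPM under INDY. All comparisons were without overlap, with log2 fold changes of 0.69 ± 0.10 under harmine and -2.42 ± 0.12 under INDY, and a difference of 3.11 ± 0.15 (SE, adjusted p = 5.85e-12, edgeR's quasi-likelihood test). IGFBP4 (0.85 and -0.95 under harmine and INDY) and IGFBP7 moved likewise, and so did STC1 (1.09 and -1.74), an inhibitor of IGFBP-cutting proteases whose level was low (0.635 ± 0.205 CPM with water). Without harmine library 2, the harmine effect of STC1 (0.97) did not pass. PAPPA2, one such protease, fell with both compounds by different amounts (-1.62 and -3.10). Of 24 Wnt feedback genes and targets, the receptors FZD8 (0.51 and -0.81) and FZD1 (0.48 and -0.43) and the pathway inhibitors NKD1 (0.40 and -1.05) and SFRP1 (0.46 and -0.42) were the 4 higher under harmine and lower under INDY, against 6.26% of all genes. The list had 15 differences above and 5 below 0. LGR6, a receptor for R-spondins, fell with both (-0.54 and -2.79). Of 39 genes of the primary cilium, the antenna that resting cells grow, 7 were higher under harmine and lower under INDY, against 6.26% of all genes, and none the other way (1 without water library 2). Examples were the intraflagellar transport gene IFT27 (0.34 and -1.09) and the transition zone gene RPGRIP1L (0.56 and -0.54). Without harmine library 3, the harmine effect of IFT27 (0.29) did not pass.

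Osteoblast lineage genes did not move as 1 group. RUNX2, the master transcription factor of bone formation, went from 33.1 ± 0.916 to 49.5 ± 1.2 CPM under harmine and from 31.5 ± 1.13 to 21.8 ± 1.93 CPM under INDY. TNFRSF11B (osteoprotegerin, 0.77 and -1.20 under harmine and INDY), BMP4 (0.41 and -0.52) and SPARC also reversed in this direction. SPP1 (osteopontin, -0.82 and 0.65) reversed in the other. ALPL, the alkaline phosphatase of mineralizing cells, fell with both (-0.34 and -2.29), although the harmine effect of ALPL (-0.36 to -0.32) did not pass without water library 2 or 3 or harmine library 1, 3 or 4. The 15 members tested had 6 differences above and 5 below 0.

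Genes of DNA replication, many of them repressed by DREAM, were raised more by harmine. Of 50 genes of origin licensing and the replication fork, 43 were higher and 3 lower under harmine, and 27 higher and 12 lower under INDY. The difference was above 0 for 33 and below 0 for 4, with median effects of 0.58 under harmine and 0.17 under INDY. By kind, 16 members changed in the same direction with both, 7 were called under harmine alone and 2 under INDY alone. A true reversal, higher under harmine and lower under INDY, was called for 10, against 6.26% of all genes. Among them were the polymerase alpha cofactor WDHD1 (0.67 and -0.87 under harmine and INDY), the helicase component CDC45 (0.56 and -0.54) and the ligase LIG1 (0.62 and -0.57). The origin recognition subunits ORC2 (-0.19 and 0.17) and ORC4 (-0.17 and 0.15) reversed in the other direction. Homologous recombination and Fanconi genes had 9 of 39 members higher under harmine and lower under INDY, against 6.26% of all genes, such as RAD51B (0.30 and -1.05). The nuclease FAN1 rose more under INDY (0.24 and 0.89). Without harmine library 2, the harmine effect of RAD51B (0.24) did not pass. Mitotic kinetochore, spindle and cytokinesis genes had 14 differences above and 13 below 0 among 55, near the shares of all genes (28.1% and 26.4%). Their median effects were 0.21 and 0.21.

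Some activators of this programme reversed. E2F1, the transcription factor that opens S phase, was at 34.4, 36.7, 37.6 and 33.1 CPM with water and 54.6, 55.5, 57.8 and 58.3 CPM under harmine, and 33.8, 34.6, 35.1 and 35.2 CPM with DMSO and 24.6, 31.98, 24.3 and 29.4 CPM under INDY. The groups did not overlap in either comparison, with log2 fold changes of 0.67 ± 0.07 under harmine and -0.33 ± 0.07 under INDY, and a difference of 1.01 ± 0.09 (SE, adjusted p = 3.51e-08, edgeR's quasi-likelihood test). Its dimer partner TFDP1 (0.50 and -0.38 under harmine and INDY), the E-type cyclins CCNE1 (0.26 and -0.47) and CCNE2 (0.43 and -0.55) and the G1 kinase CDK4 (0.28 and -0.48) moved likewise. Of 22 E2F factors and DREAM subunits, 4 reversed this way, against 6.26% of all genes, 0 the other way, and the difference was not called for 11. Under INDY, 8 of these 22 were called higher and 6 lower, and under harmine 16 higher and 0 lower. CDK4 was the 1 reversing member of 11 D cyclins, CDKs and CDK inhibitors, a count near the share of all genes (6.26%). The promoter of E2F1 (chr20:33686336-33686635, minus strand) is shown as a reversing member with a match to an E2F-type word. Such words were found in 7 of the 18 E2F factors and DREAM subunits with a promoter in the table. They were also found in 25 of the 43 replication genes with one, against 4.05% of 27305 genes. The words searched on both strands were TTTCCCGC, TTTGGCGC, TTTCGCGC and TTTGGCGG, and the capitals mark the match. Other forms of the motif, such as TTTCGCGG, were not searched and are not marked.
E2F1: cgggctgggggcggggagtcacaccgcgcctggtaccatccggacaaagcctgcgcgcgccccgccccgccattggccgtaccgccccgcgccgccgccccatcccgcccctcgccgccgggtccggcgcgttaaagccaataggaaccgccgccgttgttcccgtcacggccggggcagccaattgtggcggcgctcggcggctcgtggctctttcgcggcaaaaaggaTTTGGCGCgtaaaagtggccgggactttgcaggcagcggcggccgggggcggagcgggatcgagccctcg
It begins 20 bases before the start. Genes of nucleotide synthesis, which supply replication, had 18 of 26 differences above and 1 below 0 (2 below without INDY library 3), of which 3 were reversals and 9 were called under INDY alone. CTPS1 (CTP synthase, 0.08 and -1.33) and the mitochondrial serine hydroxymethyltransferase SHMT2 (0.08 and -1.14) fell under INDY alone.

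Fatty acid synthesis held reversals and cholesterol synthesis held none. Of 12 fatty acid genes, the difference was above 0 for 9 and below 0 for 0, and 4 were higher under harmine and lower under INDY, against 6.26% of all genes. SCD, the desaturase that makes oleate, was at 1047, 1037, 1047 and 1082 CPM with water and 1678, 1638, 1625 and 1629.9 CPM under harmine, and 1086, 1109, 1120.2 and 1141 CPM with DMSO and 790.0, 867, 733 and 869 CPM under INDY. Harmine libraries were all above and INDY libraries all below their controls, with log2 fold changes of 0.64 ± 0.04 under harmine and -0.45 ± 0.04 under INDY, and a difference of 1.09 ± 0.06 (SE, adjusted p = 1.79e-11, edgeR's quasi-likelihood test). The fatty acid desaturases FADS1 (0.13 and -1.74 under harmine and INDY) and FADS2 (0.38 and -0.60) and the acetyl-CoA carboxylase ACACA (0.34 and -0.57) reversed as well, but the harmine effect of FADS1 (0.10 to 0.14) did not pass without water library 1, 2, 3 or 4 or harmine library 1, 2, 3 or 4 or DMSO library 1, 2, 3 or 4 or INDY library 1 or 4. FASN, fatty acid synthase, fell under INDY alone (-0.02 and -0.64), and the regulator SREBF1 rose under harmine alone (0.56 and 0.04). None of 24 cholesterol genes reversed. Lower levels were called for 18 under harmine and 20 under INDY, with medians of -0.43 and -0.60, and 12 changed in the same direction by different amounts, such as the farnesyl diphosphate synthase FDPS (-0.42 and -1.87), while 5 were called under INDY alone and 1 under harmine alone. TM7SF2, a sterol reductase, rose with both (0.47 and 1.44).

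**Figure D3:**
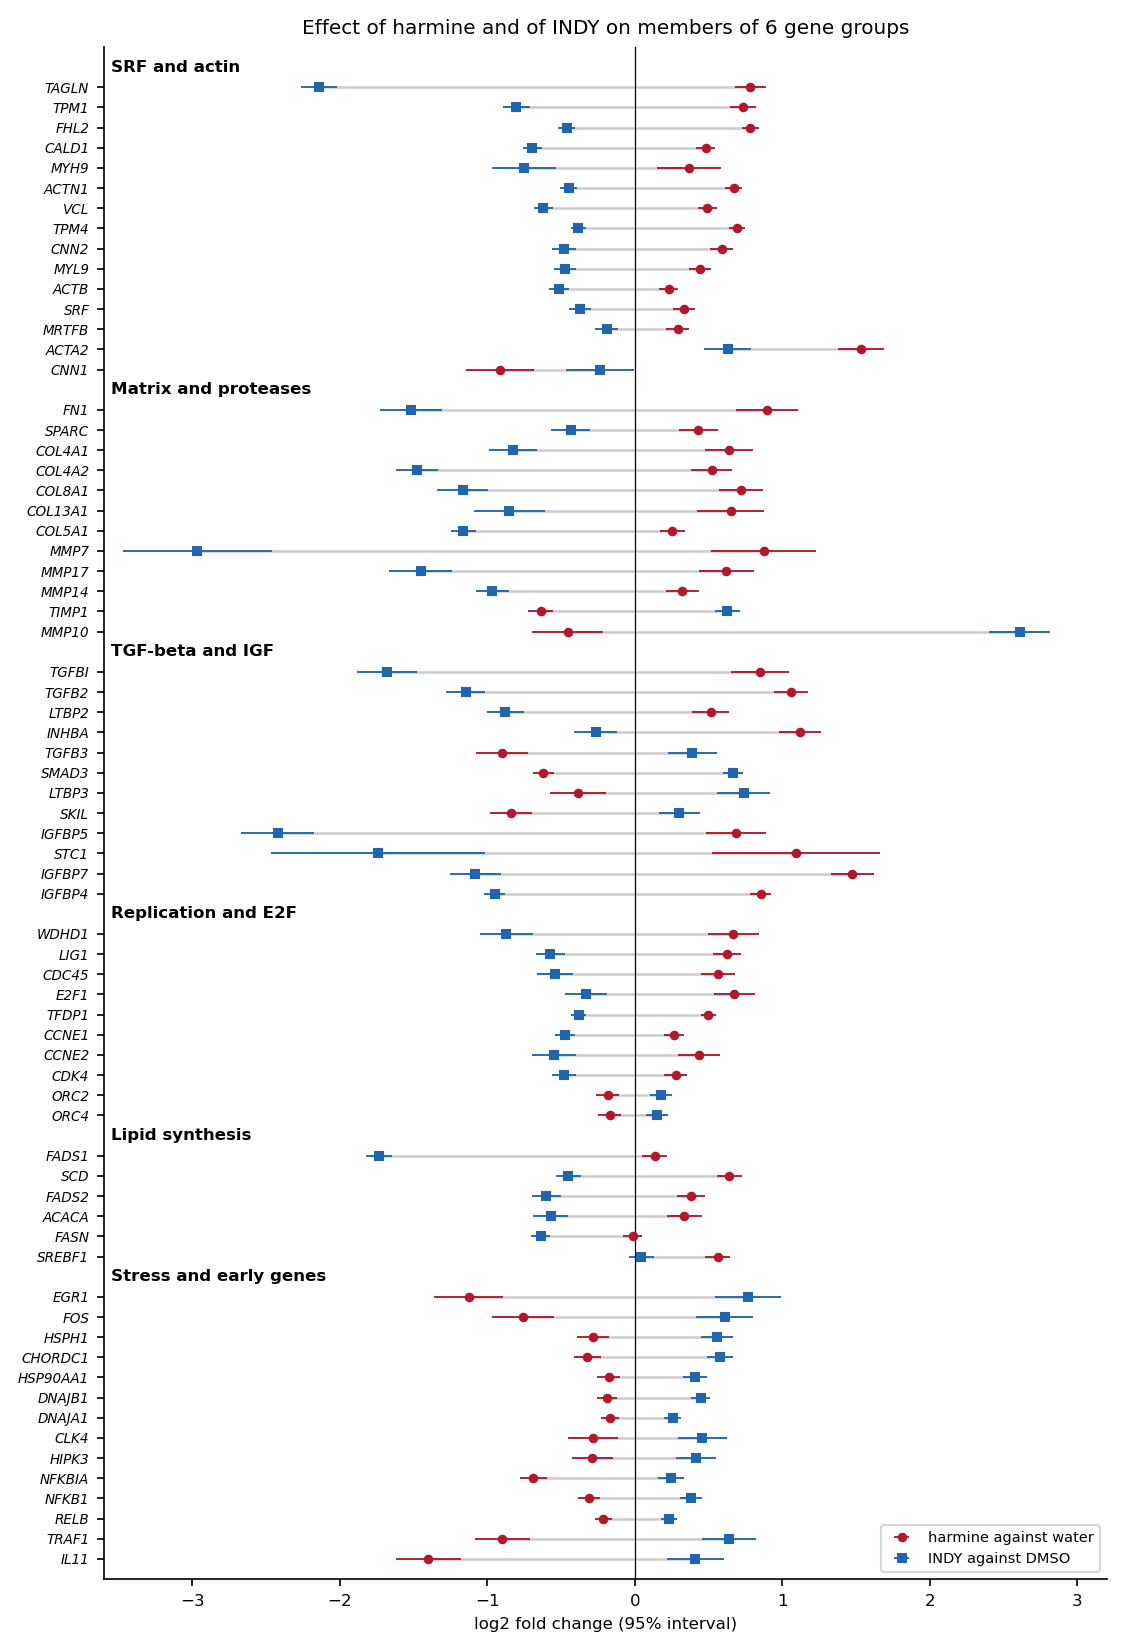
Log2 fold change (x axis) under harmine (red circles) and INDY (blue squares), with 95% intervals, for members of 6 gene groups (rows). The members shown were picked with their values known, most of them reverse, and they do not stand for their whole lists. In the first 5 groups most red circles lie above 0 and blue squares below, for example TAGLN at 0.78 and -2.14. Among the stress and early genes the order is turned, for example EGR1 at -1.13 and 0.77. Over whole lists, the medians under harmine and INDY were -0.17 and -0.85 for collagen chains and 0.58 and 0.17 for replication genes.

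Genes lower under harmine and higher under INDY had other leading members. The cleavage-stage embryo genes, which the factor DUX4 switches on in the early embryo, had the largest share: 10 of 17 tested reversed in this direction, against 4.55% of all genes, and none in the other. TRIM43 was at 20.1, 18.1, 16.5 and 22.5 CPM with water and 9.34, 6.62, 6.83 and 6.33 CPM under harmine, and 14.1, 11.7, 12.9 and 10.9 CPM with DMSO and 40.4, 36.5, 37.4 and 40.02 CPM under INDY. Harmine libraries lay below all water libraries and INDY libraries above all DMSO libraries, with log2 fold changes of -1.41 ± 0.11 under harmine and 1.63 ± 0.10 under INDY, and a difference of -3.04 ± 0.15 (SE, adjusted p = 7.43e-12, edgeR's quasi-likelihood test). PRAMEF12 (-1.44 and 1.65 under harmine and INDY), MBD3L2 (-1.60 and 1.27), the paralog TRIM43B (-1.33 and 1.62) and the histone variant H3Y1 (-1.08 and 1.60) were alike. The controls differed for these genes: 9 of the 10 reversing members were called lower in DMSO than in water, and in 10 of 10 the INDY mean was also above the water mean. Compared with the mean of both control groups, the count of reversing members was 7, and the part of the vehicle in these values was not tested. PRAMEF and TRIM43 genes belong to families of near-identical copies, and reads may be split among them. CCNA1, another gene of the list, fell with both (-3.23 and -3.68) and had no called difference. Outside it, MILR1, an immunoglobulin-like receptor (-1.16 and 1.29), the betaine transporter SLC6A12 (-1.16 and 1.00) and SSU72P7 (-1.21 and 1.63) had the strongest reversals by the rule used here. That rule took only genes whose libraries did not overlap.

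Immediate early genes, which growth signals switch on within minutes, more often had a difference below 0. EGR1, whose promoter is shown above with its CArG boxes, was at 87.5, 91.3, 96.4 and 106 CPM with water and 39.2, 40.9, 47.1 and 47.2 CPM under harmine, and 105, 112, 142 and 147 CPM with DMSO and 217, 180.4, 255 and 207 CPM under INDY. Every harmine library was below every water library and every INDY library above every DMSO library, with log2 fold changes of -1.13 ± 0.11 under harmine and 0.77 ± 0.11 under INDY, and a difference of -1.89 ± 0.15 (SE, adjusted p = 5.50e-09, edgeR's quasi-likelihood test). FOS, an AP-1 subunit, was the other reversing member (-0.76 and 0.61 under harmine and INDY). Of 24 members tested, 13 had a difference below 0, against 26.4% of all genes. ATF3 rose under INDY alone (-0.06 and 1.43) and NR4A3, a nuclear receptor, fell under harmine alone (-1.41 and 0.00).

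Cytosolic heat shock chaperones, which refold proteins under the control of HSF1, mostly rose under INDY and split under harmine. Of 20 tested, 14 were higher and 0 lower under INDY, and 6 were higher and 6 lower under harmine. A reversal, lower under harmine and higher under INDY, was called for 5, against 4.55% of all genes. HSPH1, a nucleotide exchange factor of HSP70, was at 262, 244, 239.6 and 279 CPM with water and 215, 212, 207 and 209.7 CPM under harmine, and 230.0, 223, 234 and 233 CPM with DMSO and 345, 308, 375 and 322 CPM under INDY, with log2 fold changes of -0.28 ± 0.05 under harmine and 0.55 ± 0.05 under INDY, and a difference of -0.84 ± 0.07 (SE, adjusted p = 1.32e-08, edgeR's quasi-likelihood test). The libraries of both comparisons were apart. The HSP90 cochaperone CHORDC1 (-0.32 and 0.58 under harmine and INDY), HSP90AA1 (-0.18 and 0.41), DNAJB1 (-0.19 and 0.44) and DNAJA1 (-0.17 and 0.26) were the others. HSPA1A, the stress-induced HSP70, rose with both, more under INDY (0.22 and 0.53), and the small heat shock protein HSPB8 fell under harmine alone (-1.81 and 0.09). Inverted pairs of heat shock units (GAANNTTC or TTCNNGAA, each its own reverse complement) stood in 12 of the 18 members with a promoter in the table, against 16.2% of genes. The promoter of CHORDC1 (chr11:90223000-90223299, minus strand) is shown as the reversing member with 6 such matches, in capitals, some of them overlapping.
CHORDC1: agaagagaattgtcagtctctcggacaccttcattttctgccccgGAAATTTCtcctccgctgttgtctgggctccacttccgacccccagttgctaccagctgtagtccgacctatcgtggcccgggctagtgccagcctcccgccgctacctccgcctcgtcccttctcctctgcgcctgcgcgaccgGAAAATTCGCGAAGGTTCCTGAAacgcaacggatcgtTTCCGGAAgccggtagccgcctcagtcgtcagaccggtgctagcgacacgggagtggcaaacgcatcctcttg
Matches begin 205, 60, 55, 50, 45 and 23 bases before the start.

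The targeted kinase DYRK1A and related kinases mostly differed in 1 direction. Of 14 tested, namely DYRK, CLK and HIPK kinases and PRPF4B, 10 had a difference below 0, against 26.4% of all genes. None had one above 0, or 1 without water library 1, DMSO library 4 or INDY library 3. CLK4, which phosphorylates SR splicing factors, went from 9.59 ± 1.002 to 7.87 ± 0.5899 CPM under harmine and from 8.27 ± 0.617 to 11.3 ± 0.812 CPM under INDY, and HIPK3 (-0.29 and 0.41 under harmine and INDY) also reversed. Without water library 1 or 4 or harmine library 2 or 4, the harmine effect of CLK4 (-0.27 to -0.23) did not pass. DYRK1A itself was at 19.5, 18.8, 18.3 and 20 CPM with water and 19.2, 18.02, 17.3 and 17.4 CPM under harmine, and 17.7, 18.3, 17.7 and 17.05 CPM with DMSO and 22.3, 19.4, 22.4 and 19.6 CPM under INDY. It rose under INDY (0.25, adjusted p = 3.72e-04 by edgeR) and its harmine effect was not called (-0.09, 95% interval -0.20 to 0.02). CLK1 (0.09 and 0.46) was likewise called under INDY alone.

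Lists of inflammation, stress and protein turnover held reversals in this direction too, against 4.55% of all genes, as did hypoxia and glycolysis genes (4 of 33). Nuclear respiratory chain genes (5 of 76, or 3 without water library 2) were near the share of all genes. Among 25 cytokines, chemokines and NF-kB targets, 5 were lower under harmine and higher under INDY: the NF-kB inhibitor NFKBIA (-0.69 and 0.24 under harmine and INDY), the subunits NFKB1 (-0.31 and 0.38) and RELB (-0.22 and 0.23), the adaptor TRAF1 (-0.90 and 0.64) and the cytokine IL11 (-1.40 and 0.41). The chemokine CCL20 (0.72 and -0.69) and the growth factor CSF1 (0.19 and -0.55) did the opposite. In the amino acid response, 2 of 32 members reversed in this direction and 3 in the other, near the shares of all genes (4.55% and 6.26%). The factors ATF4 (-0.18 and 0.13) and DDIT3 (-0.78 and 0.36) were lower under harmine and higher under INDY. Their metabolic and stress targets PCK2 (0.40 and -0.64), PYCR1 (0.23 and -0.52) and SESN2 (0.42 and -0.19) were higher under harmine and lower under INDY. Without water library 3 or harmine library 2 or 4, the harmine effect of PYCR1 (0.20 to 0.21) did not pass. Among 25 NRF2 and antioxidant genes, the export pump ABCC2 (-0.46 and 1.23) and the glutathione synthesis subunit GCLC (-0.26 and 0.64) were higher under INDY and lower under harmine, and ABCC3 (0.31 and -0.42) the other way round. Without water library 3 or 4 or harmine library 1, 2 or 4, the harmine effect of ABCC2 (-0.49 to -0.35) did not pass. Of 38 proteasome subunits, 5 reversed in this direction, such as PSMD14 (-0.26 and 0.20), and 0 in the other. The ubiquitin receptor PSMD4 (-0.03 and -1.14) fell under INDY alone. Outside the cleavage-stage list, the named reversing genes that also differed between DMSO and water were SHISA2, IGFBP7, TAGLN, CALD1, BMP4, TIMP1, IGFBP4, FZD8, NKD1, SSU72P7, DDIT3 and BHLHE41.

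**Figure D4:**
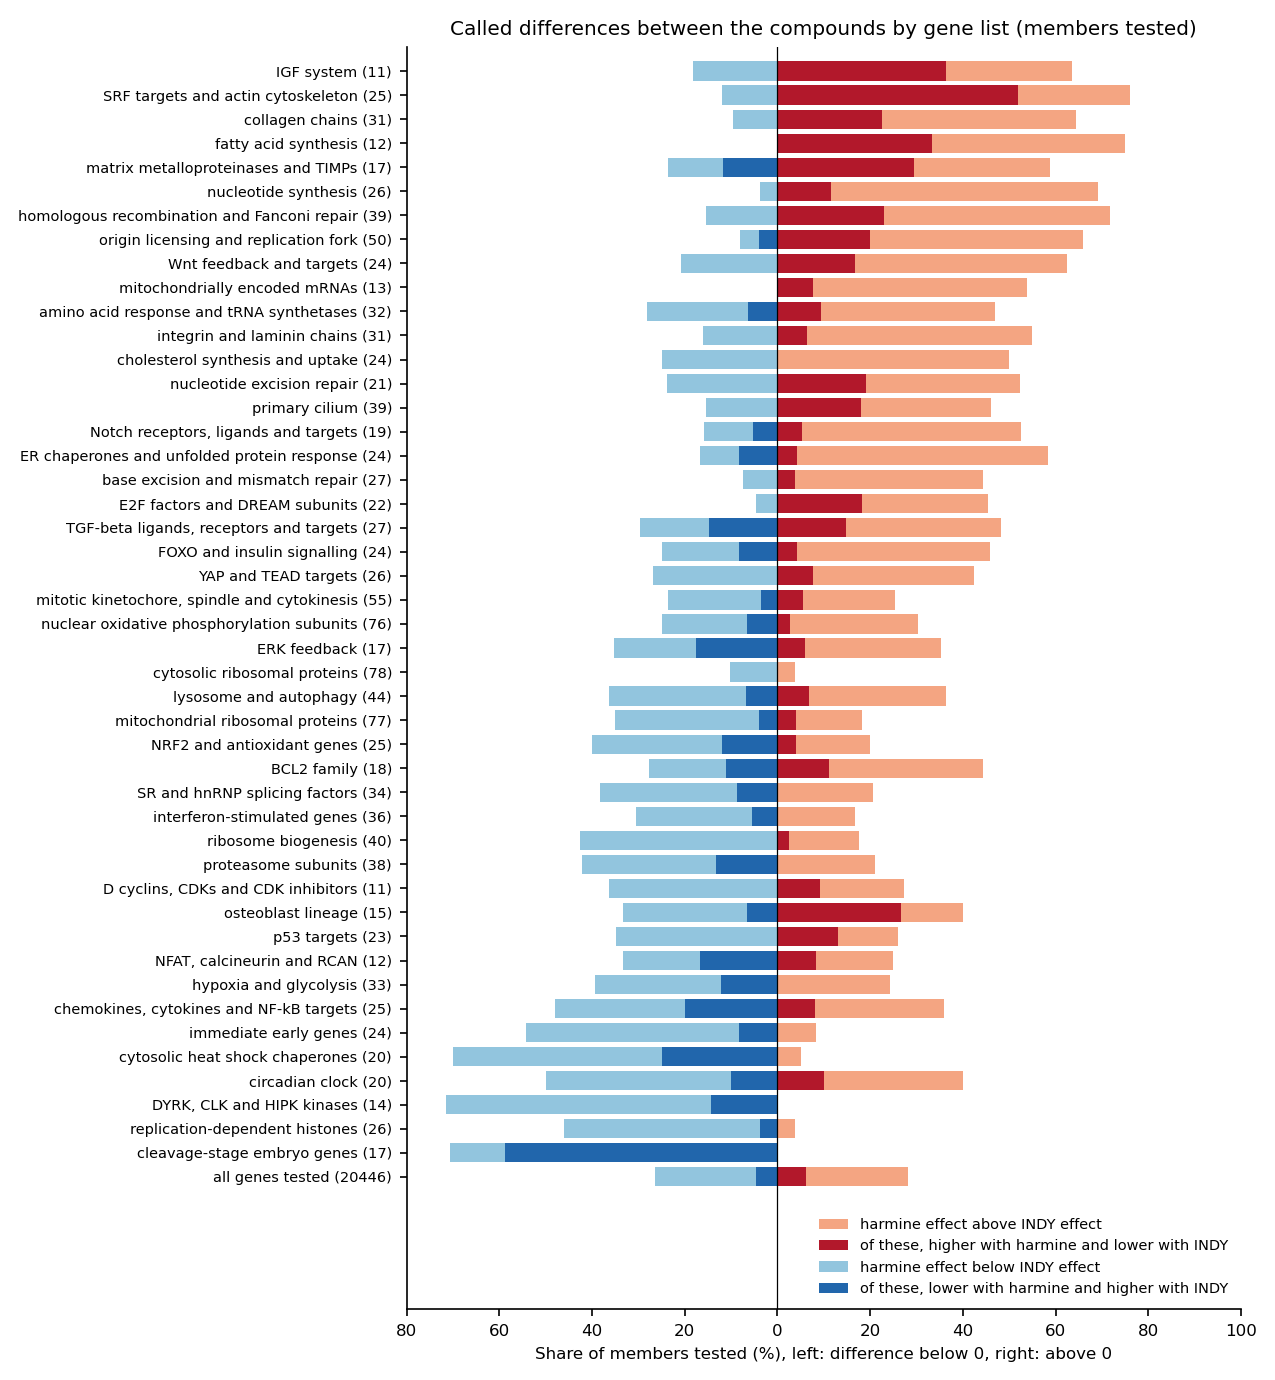
Share of members tested (x axis, percent) with a called difference above 0 (right) or below 0 (left) in 46 gene lists with at least 10 members tested (y axis, members tested in parentheses) and in all genes tested, with sign reversals in the darker colour. SRF and actin genes (13 of 25) show the widest dark red bar and cleavage-stage genes (10 of 17) the widest dark blue bar.

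Differences in size without a change of sign were more often larger under INDY. Of 1107 genes higher with both compounds and with a called difference, 877 rose more under INDY and 230 more under harmine. Of 1090 lower with both, 867 fell more under INDY and 223 more under harmine. PYGM, muscle glycogen phosphorylase, was at 0.719, 1.09, 0.775 and 1.42 CPM with water and 2.06, 2.201, 2.001 and 2.41 CPM under harmine, and 0.763, 0.915, 0.685 and 1.05 CPM with DMSO and 9.72, 9.16, 12.1 and 8.504 CPM under INDY. Both treated groups were clear of their controls, with log2 fold changes of 1.11 ± 0.18 under harmine and 3.55 ± 0.18 under INDY, and a difference of -2.43 ± 0.26 (SE, adjusted p = 1.49e-07, edgeR's quasi-likelihood test). LTA, the cytokine lymphotoxin alpha (2.63 and 5.35 under harmine and INDY), and UBAP1L (0.52 and 2.67) also rose more under INDY. TNFRSF13C, the receptor of the B cell factor BAFF (2.04 and 0.54), the ephrin receptor EPHB1 (1.54 and 0.22) and FSBP (1.57 and 0.45) rose more under harmine, although the INDY effect of FSBP (0.35 to 0.39) did not pass without DMSO library 1 or INDY library 4.

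Among falls, VIP, a neuropeptide whose gene responds to cyclic AMP, was at 16.3, 12.8, 14.3 and 12.6 CPM with water and 8.33, 9.41, 8.18 and 8.88 CPM under harmine, and 11, 10.1, 10.2 and 10.5 CPM with DMSO and 0.7403, 0.697, 0.401 and 0.556 CPM under INDY. It was lower with both compounds, more so under INDY, with log2 fold changes of -0.69 ± 0.09 under harmine and -4.14 ± 0.15 under INDY, and a difference of 3.45 ± 0.18 (SE, adjusted p = 3.42e-12, edgeR's quasi-likelihood test). The prostaglandin transporter SLCO2A1 (-0.41 and -3.39 under harmine and INDY) and the receptor IL21R (-0.88 and -3.75) also fell more under INDY, but the harmine effect of SLCO2A1 (-0.40 to -0.33) did not pass without water library 3 or harmine library 1 or 3. ANKRD22 (-3.28 and -0.84), TBC1D10C (-2.19 and -0.51) and the shared cytokine receptor chain IL2RG (-2.58 and -1.30) fell more under harmine. VIP and ANKRD22 also differed between the controls. Of 36 interferon-stimulated genes, which act against viruses, 30 were lower under harmine and 25 under INDY, with medians of -0.80 and -0.87, and 19 had no called difference. The antiviral RSAD2 fell more under harmine (-3.72 and -1.51), IFI44L more under INDY (-0.81 and -2.49), and IFI35 (-0.88 and 0.76) and DTX3L (-0.26 and 0.13) reversed. Of 24 ER chaperones and unfolded protein response genes, 18 were lower under INDY and 16 under harmine, and 8 differed in size. HSPA5 (BiP, -0.81 and -0.98) is an example, and DERL3, at 0.343 ± 0.0366 CPM with DMSO, fell under INDY alone (0.14 and -4.03).

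A compound-specific response was read most strictly where the other compound's 95% interval lay within 1.2-fold of no change. By that reading 505 genes rose and 542 fell under harmine alone, of 1758 called under harmine and not INDY. For INDY alone the counts were 1392 and 1086 of 4758. ITGB3, the beta 3 integrin of vitronectin receptors, was at 16.8, 16.9, 16.7 and 19.7 CPM with water and 52.8, 52.7, 49.4 and 54.04 CPM under harmine, and 14.9, 13.98, 13.9 and 12.7 CPM with DMSO and 15.6, 13.02, 15.5 and 14.8 CPM under INDY. Harmine libraries were all above water, INDY and DMSO libraries lay close together, and the INDY effect was 0.08 (95% interval -0.05 to 0.22) beside 1.58 under harmine. The exonuclease gene EXD3 (1.35 and 0.10 under harmine and INDY), the proprotein convertase PCSK5 (1.28 and 0.01) and the P450 CYP2U1 (1.24 and 0.08) rose likewise. ABCC9, the sulphonylurea receptor 2 of ATP-sensitive potassium channels, went from 14.5 ± 0.253 to 3.13 ± 0.235 CPM under harmine and from 10.9 ± 0.743 to 10.6 ± 0.689 CPM under INDY. METTL7B (-1.63 and -0.06), the serotonin receptor subunit HTR3A (-1.53 and 0.07) and ARL14 (-1.38 and -0.10) also fell under harmine alone. ITGB3 and ABCC9 also differed between the controls.

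With INDY alone, ATF3, a stress-induced factor, was at 19.98, 20.1, 18.1 and 19.5 CPM with water and 19.3, 19.2, 16.7 and 19.1 CPM under harmine, and 20.01, 18.9, 19.8 and 18.8 CPM with DMSO and 52.6, 46.9, 60.3 and 48.4 CPM under INDY. INDY libraries were 2.69-fold above DMSO, and the harmine effect was -0.06 (95% interval -0.21 to 0.08) beside 1.43 under INDY. The lysine hydroxylase JMJD6 (0.02 and 1.29 under harmine and INDY), the natriuretic peptide convertase CORIN (-0.06 and 1.28) and C20orf96 (0.09 and 1.37) rose likewise. The cell adhesion protein NTM (0.09 and -2.72), the mannosidase MAN1C1 (-0.07 and -2.36), the histone chaperone NAP1L4 (0.04 and -2.35) and TCIM (-0.01 and -2.25) fell under INDY alone. UQCRC2, a core subunit of respiratory complex III, fell from 99.2 ± 2.47 to 18.4 ± 3.62 CPM under INDY and was at 96.3 ± 2.43 CPM with water and 109 ± 0.867 under harmine. The 76 nuclear respiratory chain genes as a list had 23 differences above and 19 below 0, near the shares of all genes (28.1% and 26.4%). Mitochondrially encoded mRNAs had 7 of 13 differences above and 0 below 0, and MT-ND3 (0.19 and -0.27) reversed, although the harmine effect of MT-ND3 (0.16 to 0.19) did not pass without water library 2 or 3 or harmine library 2, 3 or 4.

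Clock, Notch and insulin pathway genes held a few reversals of both kinds. Among 20 clock genes, 2 were higher under harmine and lower under INDY and 2 the other way round, the latter not named here. The counts were 1 and 1 of 19 Notch genes and 1 and 2 of 24 FOXO and insulin genes. Over all genes tested the shares were 6.26% and 4.55%, and the Notch and insulin counts were near them. With 1 library left out, each count was between 1 and 3. In the clock, the repressor BHLHE41 (0.38 and -2.15 under harmine and INDY) and the activator NPAS2 (1.03 and -0.16) were higher under harmine and lower under INDY (but the harmine effect of BHLHE41 (0.33) did not pass without harmine library 2), with 8 differences above and 10 below 0 over 20 genes, and CIART rose under INDY (0.36 and 1.64). The Notch target HES1 (0.36 and -0.24) and the ligand DLL1 (-0.48 and 0.45) reversed in opposite orders, with 10 differences above and 3 below 0 over 19 Notch genes. So did the insulin receptor substrate IRS1 (0.67 and -0.38) and the pyruvate dehydrogenase kinase PDK4 (-0.35 and 0.32), with 11 above and 6 below 0 over 24 genes of FOXO and insulin signalling, against 28.1% and 26.4% of all genes. Without DMSO library 3 or INDY library 3, the INDY effect of PDK4 (0.25 to 0.26) did not pass, and similarly the harmine effect of PDK4 (-0.30) did not pass without water library 1. Of 18 BCL2 family genes, 2 were higher under harmine and lower under INDY (1 without water library 2 or 3 or any 1 harmine library) and 2 the other way round. The list had 8 differences above and 5 below 0. The apoptosis inhibitor BCL2 was higher under harmine and lower under INDY (0.36 and -0.73). Of 26 replication-dependent histone genes, most of whose mRNAs lack the poly(A) tail that the library kit selects, the difference was below 0 for 12 and above for 1, and H2BC11 reversed (-0.66 and 0.24).

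Many genes gave no difference that the test could call. For 9307 genes the difference was not called, and in 2289 of them its 95% interval lay within 1.2-fold of 0. Among genes called with both compounds in the same direction, 2718 had no called difference, 1140 of them with such an interval. Cytosolic ribosomal protein genes were mostly without a called difference: 67 of 78 had none, with median effects of 0.14 under harmine and 0.17 under INDY. The difference was above 0 for 3 and below 0 for 8. The latter count was 14 without water library 4 and ranged from 0 to 28 over alternatives other than leaving out 1 library. The mesenchymal intermediate filament VIM rose with both, at 0.22 and 0.28, with a difference of -0.06 (95% interval -0.17 to 0.05) that was not called.

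Sequence features differed by the direction of reversal, and also by direction among genes that did not reverse. Among protein-coding genes, the median GC share of the transcript was 52.02% for the 1085 genes higher under harmine and lower under INDY, 45.2% for the 843 with the opposite response and 48.8% for all 15194 tested. It was 51.3% and 45.1% for genes called higher and lower under harmine alone. For genes higher and lower with both compounds by different amounts it was 52.2% and 47.9%. For genes called higher and lower under INDY alone it was 47.8% and 50.2%. The Spearman correlation of GC share with the difference was 0.069. From the lowest to the highest decile of genes by GC share, the first kind went from 4.14% to 8.75% and the second from 8.36% to 2.83%. The median harmine effect went from -0.09 to 0.11 and the median INDY effect from -0.01 to 0.02. By genomic span the last decile stood out, with genes of 182360 to 2473539 bases: their median effect was -0.11 under harmine and -0.30 under INDY, against 0.06 and 0.04 in the first decile. These are descriptions across genes, which are not independent replicates, and the authors' counting corrected for GC bias.

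**Figure D5:**
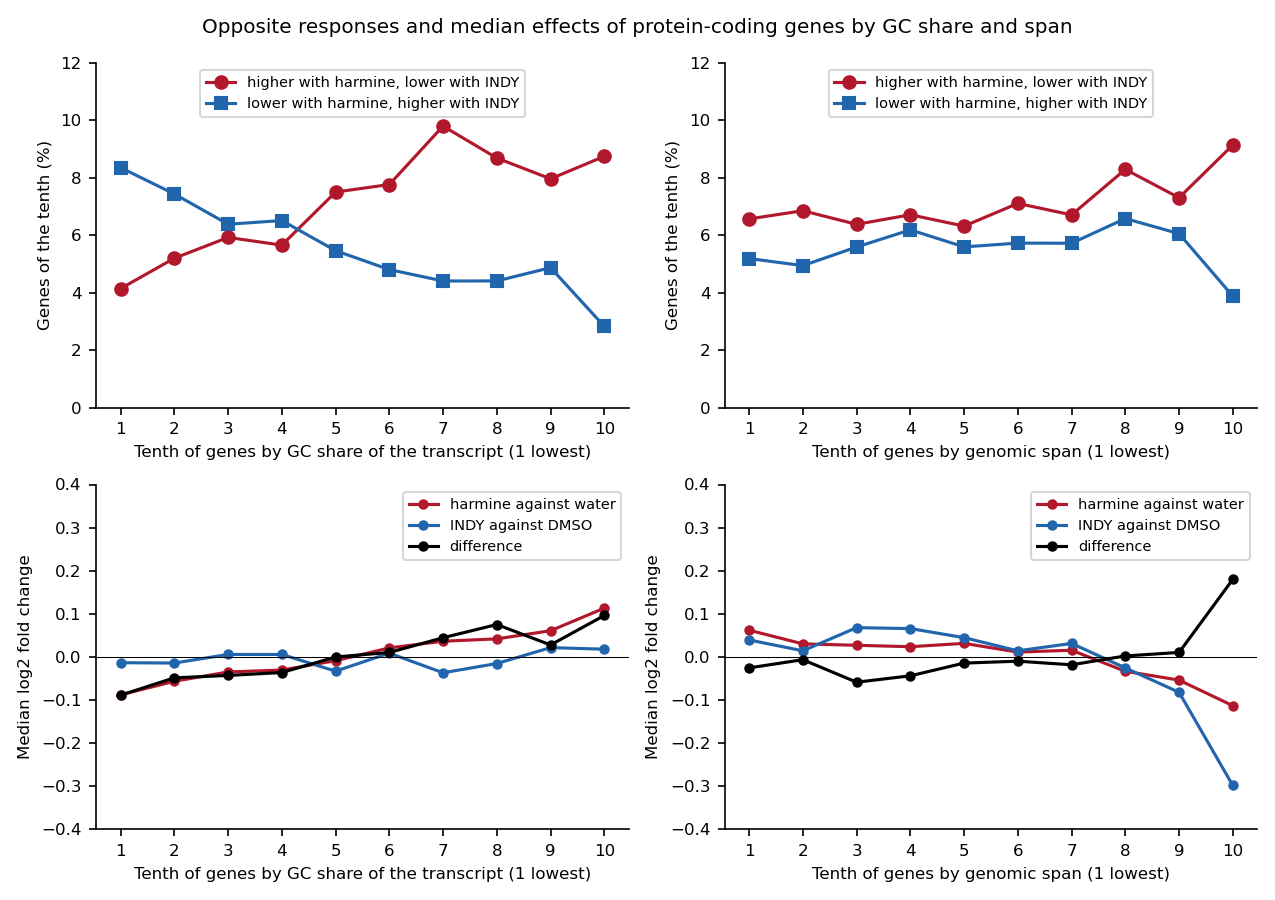
Top, share of protein-coding genes (y axis, percent) that were higher under harmine and lower under INDY (red) or the reverse (blue), and bottom, median log2 fold change under harmine (red), INDY (blue) and their difference (black), by decile of genes (x axis) in GC share of the transcript (left) or genomic span (right). The red and blue shares cross with GC share, from 4.14% and 8.36% in the first decile to 8.75% and 2.83% in the last.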

How the data were processed

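Estimated counts per gene were deposited for 59081 genes in 16 U2OS libraries. Per the study's methods and the submitters' processing notes, the authors quantified stranded poly(A) reads with Salmon 1.1 against GENCODE transcripts on GRCh38, with GC and sequence bias corrections, and summed them to genes with tximport. The deposited values are neither scaled nor whole for every gene and were rounded. Totals were 44301910 to 65889667 per library, and low counts and the 4 libraries per group limit the precision.

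The libraries were grouped by their labels and fitted in 1 model of 4 groups with edgeR 4.0.16 (filterByExpr, TMM, quasi-likelihood test, Benjamini-Hochberg adjustment over 20446 genes, threshold 0.01). The contrast was harmine against water minus INDY against DMSO. Standard errors came from the weights of the fit, levels are TMM-scaled CPM, and 95% intervals are for single genes. A gene counted as one-compound only in the strict sense when the other effect's interval lay within 1.2-fold. The steps were tested on simulated data. The members and the 47 gene lists were chosen with earlier results of these data known.

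Named genes were protein-coding with a mean log2 CPM of at least 1: the 8 strongest reversals per direction by the smaller of both effects, without overlap of libraries, the 3 largest differences per kind among genes changed the same way, the 4 largest effects per compound and direction among one-compound genes, and in each list the called member with the largest difference each way and every reversing member where 5 or fewer reversed. This rule selected 199 genes, and many of them are not named, so that the reversing members given for a list can be incomplete. Of 176 genes with values, 111 came from this rule. The others were chosen after their values were seen, namely TPM1, FHL2, CALD1, MYH9, ACTN1, VCL, TPM4, CNN2, MYL9, ACTB, SRF, MRTFB, ACTA2, CNN1, FN1, VIM, COL1A1, ALPL, ITGAM, COL4A1, COL4A2, COL8A1, COL13A1, COL5A1, COL6A1, COL6A3, MMP17, MMP14, MMP2, TIMP2, TIMP1, TGFB2, LTBP2, INHBA, SMAD3, LTBP3, SKIL, STC1, PAPPA2, LGR6, RPGRIP1L, WDHD1, CDC45, LIG1, ORC4, RAD51B, SHMT2, FASN, SREBF1, CCNA1, NR4A3, HSPA1A, DYRK1A, CLK1, NFKBIA, NFKB1, RELB, TRAF1, IL11, CSF1, RSAD2, IFI35, DERL3, HSPA5 and CIART.

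Genes were placed with GENCODE 44 on GRCh38, 56629 by identifier and 2227 by name, and 225 were not placed. A few genes are not reported here. Promoter sequences are from RefSeq (GRCh38.p14), and a gene can have several starts. Alternatives were other normalizations, filters and tools (DESeq2 1.42.0, limma 3.58.1), a replicate block, thresholds, leaving out libraries, and a comparison of each compound with both control groups, the last chosen after seeing the data.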

Additional observations from a re-analysis of the deposited data

Results flagged for a closer look

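Among the genes named above, the level in 1 library stood apart from the other 3 of its group in 27 of 704 gene and group combinations (3.84%), by a gap to its nearest neighbour over the critical share of the group's range. Chance alone gives about 1 in 20. DMSO library 1 lay below the other 3 for RGS16 (16.3 CPM against 19.6 to 20.4), SHISA2 (1.77 CPM against 2.11 to 2.16), SPARC (633 CPM against 695 to 706), STC1 (0.422 CPM against 0.875 to 0.941), IFT27 (14.2 CPM against 16.1 to 16.5), FADS2 (498 CPM against 517 to 521), SESN2 (71.9 CPM against 73.9 to 74.2), IL21R (3.95 CPM against 4.93 to 5.03) and MT-ND3 (506 CPM against 563 to 573). Water library 4 lay above the other 3 for VCL (274 CPM against 254 to 257), MMP2 (459 CPM against 441 to 444) and ITGB3 (19.7 CPM against 16.7 to 16.9). INDY library 3 lay below the other 3 for VCL (154 CPM against 166 to 168) and SMAD3 (148 CPM against 151 to 152). DMSO library 3 lay below the other 3 for CNN1 (1.59 CPM against 1.79 to 1.83). Harmine library 2 lay above the other 3 for FN1 (1980 CPM against 1830 to 1850) and CSF1 (82.2 CPM against 79.9 to 80.1). Harmine library 4 lay above the other 3 for MMP10 (1.49 CPM against 1.26 to 1.3). Harmine library 1 lay below the other 3 for SHMT2 (275 CPM against 293 to 294). Harmine library 1 lay above the other 3 for SLC6A12 (1.51 CPM against 1.47 to 1.47) and HSP90AA1 (1170 CPM against 1090 to 1110). Harmine library 3 lay below the other 3 for ATF3 (16.7 CPM against 19.1 to 19.3). DMSO library 1 lay above the other 3 for NFKBIA (68.5 CPM against 63.6 to 64.2). INDY library 3 lay above the other 3 for ATF4 (549 CPM against 515 to 517) and LTA (30.4 CPM against 23.5 to 24.1). INDY library 2 lay below the other 3 for ARL14 (11.3 CPM against 12.7 to 12.9). DMSO library 3 lay above the other 3 for HES1 (27.1 CPM against 24.8 to 25.1). DMSO library 1 held the most of these. No call of a difference turned its sign when any 1 library was left out.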

How the results depend on the processing

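Across 29 alternatives no reversing gene took the opposite reversal. Requiring at least 1.5-fold left 3511 differences above and 2446 below 0, 310 and 107 reversals (higher and lower under harmine), 421 genes changed the same way and 4139 called with one compound, because many effects were small. At an adjusted p under 0.05, 3439 genes changed the same way by different amounts. Leaving out 1 library gave 1057 to 1278 and 781 to 1094 reversals. Without water libraries 1 and 4 the counts were 994 and 634, with 73.5% and 64.7% of the reversing genes kept. Against the mean of both control groups, an alternative chosen after seeing the data, they were 1477 and 1014, with 89.4% and 83.7% kept. The other counts over all genes stayed within 1.5 times. Of the counts within gene lists, 434 moved further, or to or from 0, and 5018 did not. Over alternatives other than leaving out 1 library, SRF and actin reversals (13) ranged from 2 to 13. Replication reversals higher under harmine (10) ranged from 2 to 13, and collagen ones (7) from 3 to 8. Homologous recombination ones (9) ranged from 0 to 11, heat shock ones (5) from 0 to 8 and cleavage-stage ones (10) from 7 to 10. Of 119 reversing genes named, 92 reversed in every alternative other than the 1.5-fold one.

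The shared replicate numbers did not pair the libraries: 0 of 24 same-numbered pairs had a correlation of deviations above 0.1 (-0.133 to 0.0868), and 5 of 16 libraries correlated best with their own number. With the number as a block, the model called 5624 differences above and 5268 below 0, with 1255 and 889 reversals, 2066 genes changed the same way and 6453 called with one compound.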
